A study of Mus musculus with 9 samples.

Results

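The genes that write, erase and read DNA methylation were followed in mouse embryonic stem (ES) cells given one of 2 microRNA mimics. The 9 members were chosen by name, with earlier results of these data known. They comprised all probe sets annotated to Dnmt1, Uhrf1, Dnmt3a, Dnmt3b, Dnmt3l, Tet1, Tet2, Mbd2 or Mbd3, and were 9 of the 19938 genes with a probe set of their own. They were read by 11 of the 35557 probe sets, 3 of which belonged to Tet1. The cells of all groups were Dgcr8 -/-, so that they lacked a protein needed to process most microRNA precursors, and were grown without leukaemia inhibitory factor (LIF). One group received 50 nM of a synthetic let-7c mimic, one 50 nM of a miR-294 mimic and one was mock transfected, and RNA was harvested 12 h later. Each group had 3 biological replicates with 1 array each. A control mimic was not among the groups, so effects of transfecting any small RNA are part of each difference from mock. The sources used here do not name the Dgcr8 -/- line or say whether it was 1 clone.

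In mammals a methyl group on cytosine is copied after replication by Dnmt1, which Uhrf1 brings to hemimethylated sites, and is laid down anew by Dnmt3a and Dnmt3b with the help of the inactive relative Dnmt3l. Tet enzymes oxidise the mark and so start its removal, and proteins with a methyl-CpG-binding domain, such as Mbd2, read it. ES cells express most of this machinery, and their level of DNA methylation shifts as they leave the naive state. In mouse ES cells that lack Dicer, the miR-290 family, to which miR-294 belongs, has been reported to sustain the Dnmt3 genes by lowering their repressor Rbl2.

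The natural mature microRNAs behind the mimics are shown because their seeds (bases 2 to 8 from the 5′ end, in capitals) set the 2 treatments apart. They were taken from RefSeq (GRCm38.p6). The miR-294 seed is shared by 5 mature mouse microRNAs in that table, among them miR-302b, shown for comparison because MBD2 has been reported as a target of the miR-302 family in human cells. The let-7c seed is shared by 11.
mmu-let-7c-5p: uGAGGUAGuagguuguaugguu
mmu-miR-294-3p: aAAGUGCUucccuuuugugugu
mmu-miR-302b-3p: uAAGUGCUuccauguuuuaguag
The miR-294 sequence lies at chr7:3220691-3220712 on the plus strand, and the same let-7c sequence is made from chr15:85706616-85706637 and chr16:77599672-77599693. Sites for these seeds in the members' transcripts were not analysed here.

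The values are log2 intensities of probe sets as deposited, and each difference is a log2 difference with its standard error after ±. A gene counted as called when its Benjamini-Hochberg adjusted p from a limma fit over all 13182 tested genes was under 0.05. Within a group, arrays correlated at no less than 0.995, and array medians lay between 7.36 and 7.41. The probe set for Dgcr8 read 8.85 to 9.13 over the 9 arrays; the sources used here do not say which part was deleted, so this is no check of the genotype. All 10 ES cell markers tested were bright, with list means of 11.63 to 11.64 on the let-7c arrays, 11.90 to 11.98 with miR-294 and 11.80 to 11.85 with mock. Of these 10, 6 fell and 0 rose by limma with let-7c (7 and 0 at an unadjusted p under 0.05), and 5 rose and 1 fell with miR-294. Over all tested genes 14.8% fell and 13.9% rose with let-7c, and 20.7% rose and 21.1% fell with miR-294. The part of the ES cell markers in the results below was not tested. The averages that follow are over all measured genes of a list, including those left out of testing as dim. Neurectoderm markers (6 of 8 tested) averaged 8.20 to 8.23 per array with let-7c, 8.07 to 8.14 with miR-294 and 8.01 to 8.08 with mock. Of these, 1 rose with let-7c, Nes (0.76), and 2 with miR-294, Neurog2 (0.19) and Hes5 (0.16). Feeder fibroblast markers (7 of 10 tested) averaged 7.95 to 8.14, 7.88 to 7.97 and 7.84 to 7.95 in the same order. Of these, 1 rose with let-7c, Vim (0.33). With miR-294 1 rose, Col3a1 (0.16), and 1 fell, Vim (-0.67). Primitive endoderm markers (4 of 8 tested) averaged 6.74 to 6.82, 6.84 to 6.86 and 6.64 to 6.74, and 1 rose with each mimic, Gata4 with let-7c (0.31) and Sox7 with miR-294 (0.36). Trophoblast markers (6 of 8 tested) averaged 7.55 to 7.71, 7.55 to 7.63 and 7.50 to 7.61; Gata3 rose (0.48) and Tfap2c fell (-0.31) with let-7c, and Ascl2 rose with miR-294 (0.26). The part of these lists in the results was not tested either. In bulk RNA, fewer cells of a type and less RNA per cell cannot be told apart.

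The largest responses were those of Dnmt3b, the de novo methyltransferase, to let-7c and of Mbd2, the methyl-CpG reader, to miR-294. Dnmt3b was 1.73-fold lower than mock with let-7c but 1.31-fold higher with miR-294. Mbd2 was 1.97-fold lower with miR-294 and overlapped mock with let-7c. With let-7c 6 members fell and 1, Dnmt3l, rose; with miR-294 4 rose (Dnmt3l, Dnmt3b, Mbd3 and Uhrf1) and 3 fell (Mbd2, Dnmt1 and Tet1). All 9 members passed the filter on dim probe sets.

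As background to these counts, let-7c called 28.7% of the tested genes, 14.8% lower and 13.9% higher, against 7 of 9 members. The arrays of the groups did not overlap for 43.9% of the tested genes and for 7 of 9 members. The count of 6 lower members was 3 without let-7c replicate 3 and 2 without mock replicate 2, with the single calls given below. MiR-294 called 41.9%, 20.7% higher and 21.1% lower, against 7 of 9 members, and the arrays did not overlap for 53.8% and again 7 members. Both comparisons share the mock arrays. The median absolute difference of the members was 0.23 with let-7c and 0.25 with miR-294, beside 0.10 and 0.13 over all tested genes. Because the members were chosen with earlier results of these data known, these figures cannot test whether they responded more than other genes.

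**Figure D1:**
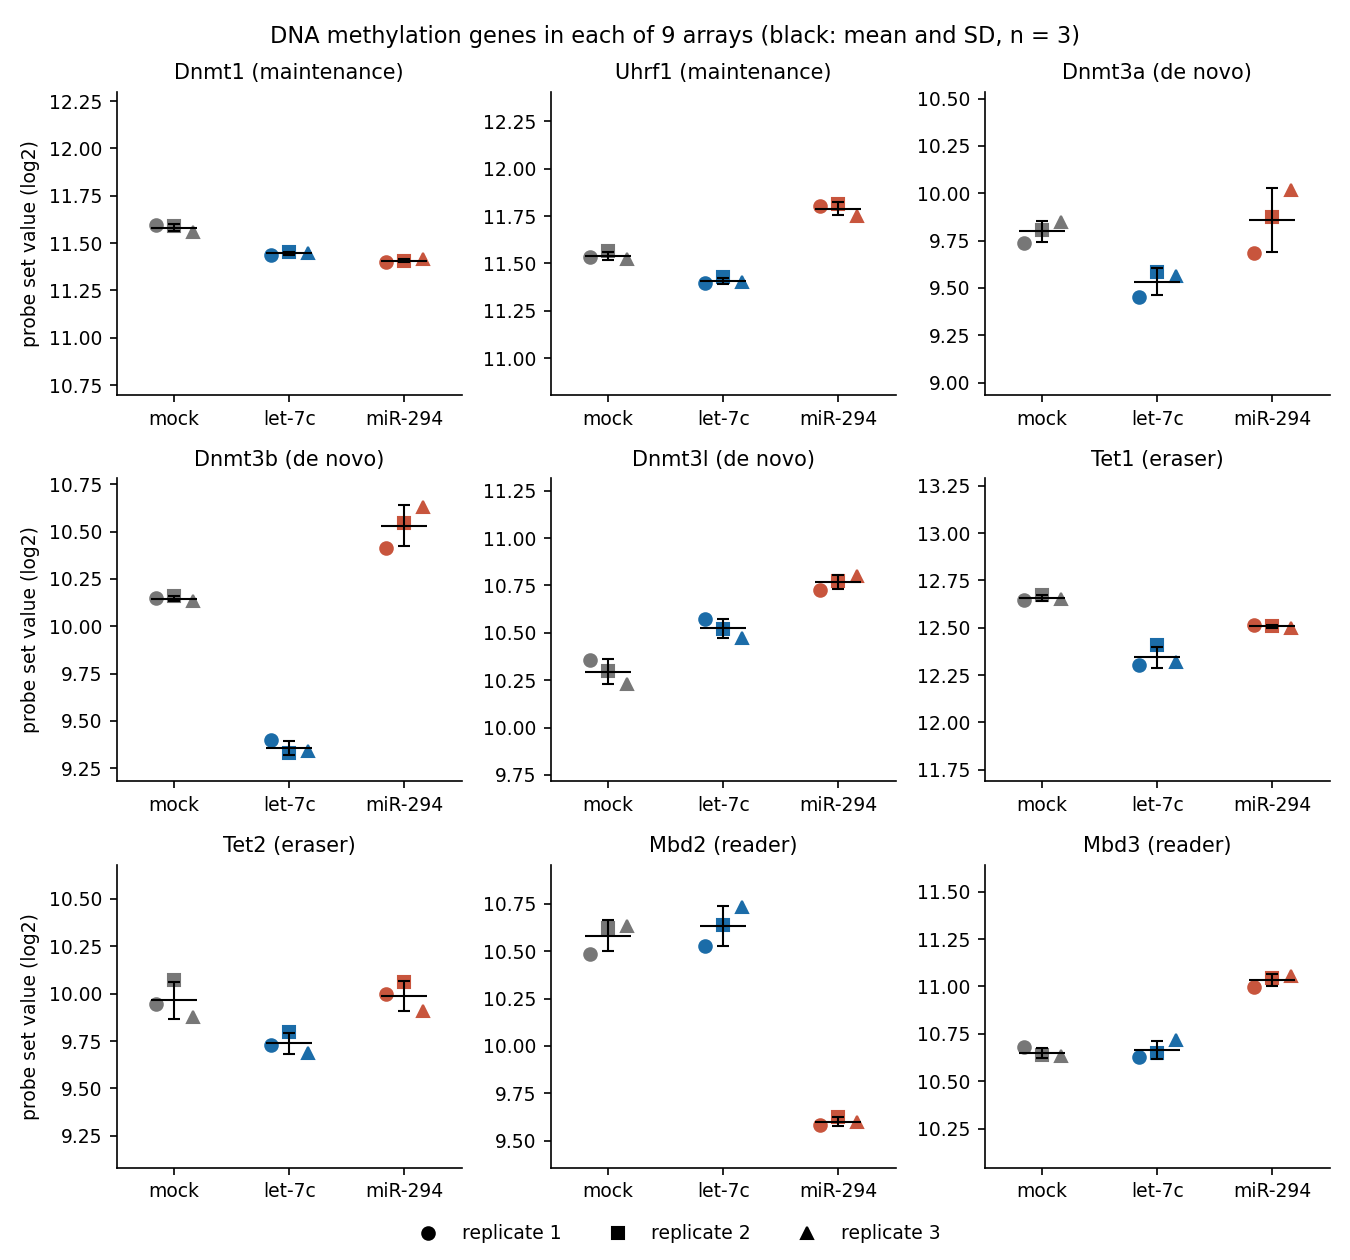
Log2 probe set value (y axis, each panel drawn to the same scale) of the 9 genes in the mock, let-7c and miR-294 groups (x axis), with 1 point per array, symbols for the replicate number and the mean and SD (n = 3) in black. The let-7c arrays of Dnmt3b (9.33 to 9.40) and the miR-294 arrays of Mbd2 (9.58 to 9.62) lie far below mock.

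Dnmt1, the maintenance methyltransferase, was lower than mock with both mimics. It read 11.59, 11.59 and 11.56 on the mock arrays, 11.44, 11.45 and 11.45 with let-7c, and 11.40, 11.41 and 11.42 with miR-294. The mock arrays were above all others, and the let-7c and miR-294 arrays did not overlap although they lay close together. The fall was -0.14 ± 0.04 with let-7c (adjusted p = 0.0230) and -0.17 ± 0.04 with miR-294 (adjusted p = 0.00424). The let-7c call was lost on leaving out let-7c replicate 3 (adjusted p = 0.0553), mock replicate 1 (0.0731) or mock replicate 2 (0.0719), with no filter (0.0570) and under quantile normalization (0.103). Its adjusted p ran from 0.0031 to 0.103 over the alternatives. Between the mimics the difference of 0.04 did not pass the test (95% interval -0.05 to 0.12, adjusted p = 0.455), except under quantile normalization (0.12, adjusted p = 0.0255; up to 0.745 over the alternatives).

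Uhrf1, the partner that guides Dnmt1 to replicated DNA, went in opposite directions with the mimics. Its mock arrays read 11.54, 11.56 and 11.52, its let-7c arrays 11.40, 11.43 and 11.40, and its miR-294 arrays 11.80, 11.81 and 11.75. All 3 groups were separate, with let-7c lowest and miR-294 highest. The rise with miR-294 was 0.25 ± 0.04 (adjusted p = 0.000585) and kept its call in all 18 alternatives. The fall with let-7c was small, -0.13 ± 0.04 (adjusted p = 0.0328). The call was lost on leaving out any let-7c array (adjusted p of 0.0725, 0.0509 and 0.0791 for replicates 1, 2 and 3) or any mock array (0.0769, 0.109 and 0.0624). It was also lost with no filter (0.0751) and under quantile normalization (0.0961; lowest over the alternatives 0.00509). The direct difference between the mimics was -0.38 ± 0.04 (let-7c minus miR-294, adjusted p = 1.45e-05).

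Dnmt3b showed the widest separation of the de novo methyltransferase genes. On the mock arrays it read 10.15, 10.16 and 10.13. With let-7c it read 9.40, 9.33 and 9.34, and with miR-294 10.41, 10.55 and 10.63. The let-7c arrays all lay below mock and the miR-294 arrays all above it. The fall with let-7c was -0.79 ± 0.06 (adjusted p = 5.4e-06), and only 52 tested genes, 0.394%, had a more negative difference. The rise with miR-294 was 0.39 ± 0.06 (adjusted p = 0.000239). The mimics differed by -1.17 ± 0.06 (let-7c minus miR-294, adjusted p = 4.66e-08), and 23 tested genes had a more negative difference.

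Dnmt3a, the other de novo enzyme, was lower with let-7c but spread more between arrays. It read 9.74, 9.81 and 9.85 with mock, 9.45, 9.59 and 9.56 with let-7c, and 9.68, 9.87 and 10.02 with miR-294. The miR-294 arrays straddled those of mock and had the largest spread of any member in any group (SD 0.17). The fall with let-7c was -0.27 ± 0.08 (adjusted p = 0.0238), and the call was lost on leaving out let-7c replicate 1 (0.0841), mock replicate 2 (0.0668) or mock replicate 3 (0.0784). Its lowest adjusted p over the alternatives was 0.00437. With miR-294 the difference was 0.06 (95% interval -0.11 to 0.23, adjusted p = 0.555).

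Dnmt3l, the cofactor without enzyme activity, was the only member that rose with both mimics. Its mock arrays read 10.36, 10.30 and 10.23, its let-7c arrays 10.57, 10.52 and 10.47, and its miR-294 arrays 10.73, 10.77 and 10.80. All 3 groups were separate, with mock lowest. The rise was 0.23 ± 0.05 with let-7c (adjusted p = 0.00564) and 0.47 ± 0.05 with miR-294 (adjusted p = 2.46e-05). It was larger with miR-294, by 0.24 ± 0.05 in the direct test (let-7c minus miR-294 of -0.24, adjusted p = 0.00147).

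Rbl2, the reported repressor of the Dnmt3 genes, is given beside them. It read 9.16, 9.18 and 9.06 with mock, 9.27, 9.22 and 9.19 with let-7c, and 8.13, 7.67 and 7.94 with miR-294. Its miR-294 arrays were all far below the others. Its let-7c arrays (lowest 9.187) barely cleared those of mock (highest 9.185), and 43.9% of all tested genes likewise did not overlap in that comparison. The difference from mock was -1.22 ± 0.09 with miR-294 (adjusted p = 2.41e-06) and 0.09 ± 0.09 with let-7c (adjusted p = 0.498). Whether its level bears on Dnmt3b, Dnmt3l or Dnmt3a in these cells was not tested.

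Both Tet genes among the members were lower with let-7c, and Tet1 also with miR-294. Tet1, the main 5-methylcytosine oxidase of ES cells, read 12.65, 12.68 and 12.65 with mock, 12.30, 12.41 and 12.32 with let-7c, and 12.51, 12.51 and 12.50 with miR-294. The groups were separate, with mock highest and let-7c lowest. The fall was -0.31 ± 0.04 with let-7c (adjusted p = 0.000394) and -0.15 ± 0.04 with miR-294 (adjusted p = 0.0166). The miR-294 call was lost on leaving out mock replicate 2 (adjusted p = 0.0563; lowest over the alternatives 0.000856). The fall was larger with let-7c, by -0.16 ± 0.04 in the direct test (adjusted p = 0.00797).

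The other probe sets of Tet1 gave nearly the same picture, though they read the same RNA and are not independent. Relative to mock their differences were -0.32 and -0.28 with let-7c and -0.19 and -0.15 with miR-294. Each of these 4 differences passed the test when every probe set was tested on its own, with adjusted p-values of 0.0005 and 0.000447 for let-7c and 0.00531 and 0.00923 for miR-294.

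**Figure D2:**
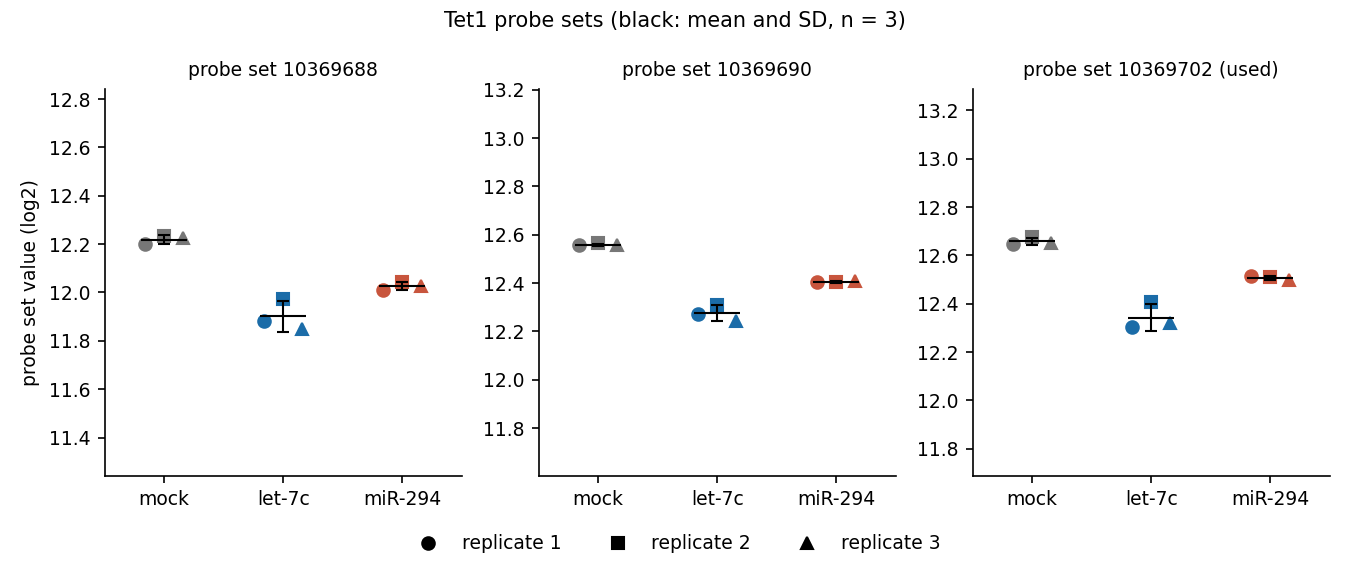
Log2 value (y axis, each panel drawn to the same scale) of the 3 Tet1 probe sets on the mock, let-7c and miR-294 arrays (x axis), with symbols for the replicate number and the mean and SD (n = 3) in black. In each probe set mock is highest, miR-294 intermediate and let-7c lowest, with no overlap between groups.

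Tet2, the other oxidase gene of the family expressed in ES cells, was called lower than mock with let-7c. It read 9.94, 10.07 and 9.88 with mock, 9.73, 9.80 and 9.69 with let-7c, and 9.999, 10.06 and 9.91 with miR-294. The let-7c arrays lay below both other groups, which overlapped each other. The fall with let-7c was -0.23 ± 0.06 (adjusted p = 0.0171), and the call was lost on leaving out let-7c replicate 3 (0.0625) or mock replicate 2 (0.0729; lowest over the alternatives 0.00242). With miR-294 the difference was 0.02 (95% interval -0.11 to 0.16, adjusted p = 0.783). The direct test separated the mimics (-0.25 ± 0.06, adjusted p = 0.00488).

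The 2 readers moved in opposite directions with miR-294, and neither passed the test with let-7c. Mbd2, which binds methylated CpG sites and recruits the NuRD deacetylase and remodelling complex, read 10.49, 10.62 and 10.64 with mock and 10.53, 10.64 and 10.73 with let-7c. With miR-294 it read 9.58, 9.62 and 9.60. The miR-294 arrays all lay far below the other 6, which overlapped. The fall with miR-294 was -0.98 ± 0.06 (adjusted p = 5.97e-07), and 101 tested genes, 0.766%, had a more negative difference. With let-7c the difference was 0.05 (95% interval -0.08 to 0.18, adjusted p = 0.562). The mimics differed by 1.03 ± 0.06 (let-7c minus miR-294, adjusted p = 1.8e-07).

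Mbd3, the relative of Mbd2 that serves as a NuRD subunit and binds methylated DNA poorly in mammals, rose with miR-294. It read 10.68, 10.64 and 10.63 with mock, 10.63, 10.65 and 10.72 with let-7c, and 10.996, 11.05 and 11.06 with miR-294. The miR-294 arrays were above all others, and mock and let-7c overlapped. The rise was 0.38 ± 0.04 (adjusted p = 4.81e-05). With let-7c the difference was 0.02 (95% interval -0.08 to 0.11, adjusted p = 0.824).

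**Figure D3:**
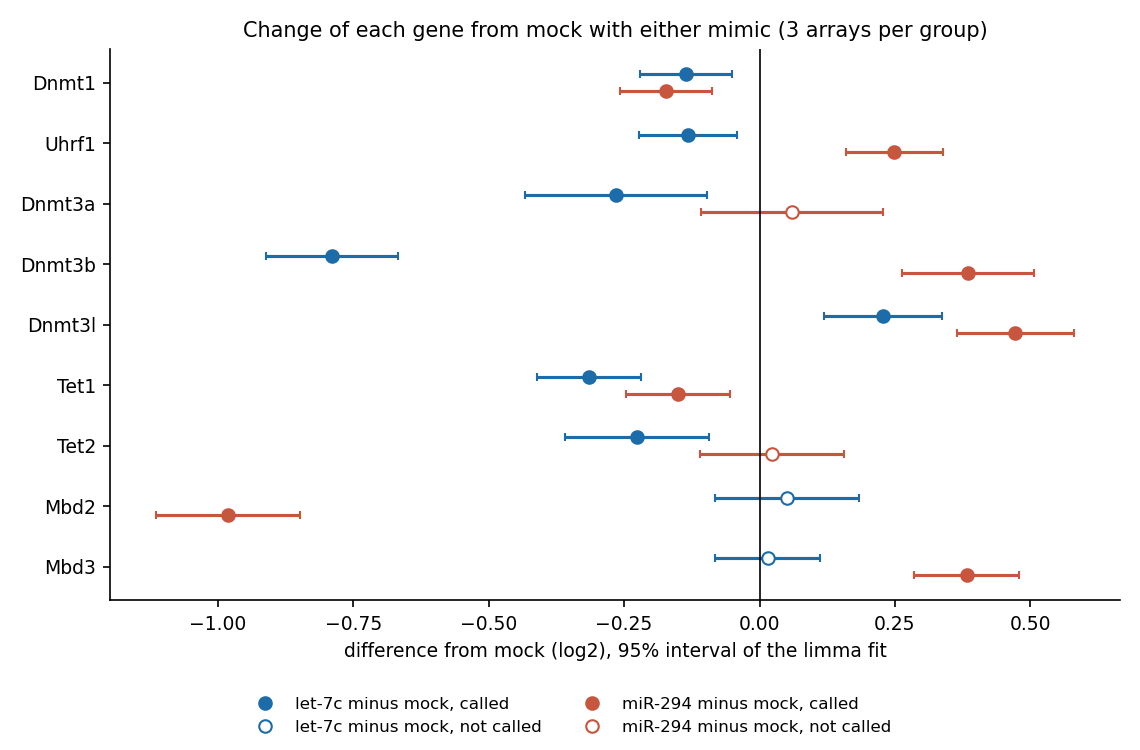
Difference from mock (x axis, log2) of each of the 9 genes (y axis) with let-7c in blue and miR-294 in red. Points are the estimates of the limma fit with 95% intervals, filled where called; the mock arrays are shared by both comparisons. Dnmt3b and Uhrf1 are called on opposite sides of 0, Dnmt3l is right of 0 and Dnmt1 and Tet1 are left of 0 with both mimics.

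Set directly against each other, the mimics differed in most of these transcripts. Of the members 7 were lower with let-7c (Dnmt3b, Uhrf1, Mbd3, Dnmt3a, Tet2, Dnmt3l and Tet1), 1 was higher (Mbd2) and Dnmt1 did not pass the test. Each of these 8 calls held in all 18 alternatives. In this comparison 50.8% of all tested genes were called, 24.5% lower and 26.2% higher with let-7c. The arrays of the 2 groups did not overlap for any of the 9 members, Dnmt1 included, as for 57% of the tested genes. Dnmt3a differed by -0.33 ± 0.08 (adjusted p = 0.00397) and Mbd3 by -0.37 ± 0.04 (adjusted p = 3.41e-05).

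Promoters of Dnmt3b and Uhrf1 are shown because these members fell with let-7c and rose with miR-294. The windows run from 250 bases before to 50 bases after a RefSeq start (GRCm38.p6), 5′ to 3′ on the plus strand. Capitals mark GC boxes (GGGCGG) and E2F words (TTTCCCGC, TTTCGCGC, TTTGCCGC or TTTGGCGC), both searched on both strands. In the Dnmt3b window 2 of the GC boxes abut and run together.
Dnmt3b promoter, chr2:153649199-153649498: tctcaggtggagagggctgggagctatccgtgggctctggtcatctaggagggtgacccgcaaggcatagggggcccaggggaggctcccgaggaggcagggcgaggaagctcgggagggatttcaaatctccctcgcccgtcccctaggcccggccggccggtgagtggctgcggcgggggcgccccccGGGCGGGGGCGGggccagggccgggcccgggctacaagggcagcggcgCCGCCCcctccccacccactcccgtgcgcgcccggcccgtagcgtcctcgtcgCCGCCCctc
Uhrf1 promoter, chr17:56304063-56304362: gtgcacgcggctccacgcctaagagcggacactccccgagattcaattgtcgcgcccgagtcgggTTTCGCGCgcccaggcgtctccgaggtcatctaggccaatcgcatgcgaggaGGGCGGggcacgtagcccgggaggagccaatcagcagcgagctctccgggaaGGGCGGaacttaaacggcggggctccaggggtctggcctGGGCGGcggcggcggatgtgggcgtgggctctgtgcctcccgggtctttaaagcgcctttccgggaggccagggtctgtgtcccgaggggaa
The Dnmt3b window held 4 GC boxes and 30 CpG dinucleotides, and no E2F word. The Uhrf1 window held 3 GC boxes, 33 CpG dinucleotides and 1 E2F word (TTTCGCGC). A GC box was present in 35.7% of all 32851 windows in the table and an E2F word in 2.26%, and the median window held 7 CpG dinucleotides. The other Uhrf1 start, at chr17:56303087-56303386, had 12 CpG dinucleotides, 1 GC box and no E2F word. Such matches are a description of the letters.

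In the other windows of the members, CpG content ranged widely. Mbd2 had no window in the set searched. The Tet2 window held 57 CpG dinucleotides, more than 99.8% of all windows, and the windows of Dnmt3a 46, 47 and 18. The 3 windows of Dnmt3l, which rose with both mimics, held 6, 4 and 3. Dnmt1 had 2 E2F words in 1 of its 3 windows, and the Mbd3 and Tet1 windows had none. The CACGTG E-box, present in 7.15% of all windows, was found in 1 window of Dnmt3a and 1 of Dnmt3l.

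Other enzymes and cofactors of the methylation cycle moved both ways, with fewer rises than falls under let-7c. Of 22 genes listed 18 were tested, of which 6 fell and 2 rose with let-7c (median -0.12, beside 0.02 over all tested genes). Among all tested genes 14.8% were called lower and 13.9% higher with let-7c. The stress-induced genes Gadd45b (0.54 ± 0.09) and Gadd45a (0.28 ± 0.05), which have been linked to demethylation, rose. Cdca7, the activator of the remodeller Hells, fell (-0.34 ± 0.06), as did the Uhrf1 relative Uhrf2 (-0.30 ± 0.07). With miR-294 3 rose and 2 fell (median 0.01), beside 20.7% and 21.1% of all tested genes. Cdca7 rose there (0.36 ± 0.06), as did Gadd45a (0.42 ± 0.05). Tet3, the oxidase best known from the oocyte, fell with miR-294 (-0.43 ± 0.05) and was also called lower with let-7c (-0.24 ± 0.05, adjusted p = 0.00505). Idh2, a mitochondrial source of the Tet cofactor, fell with miR-294 (-0.31 ± 0.05). Directly, Cdca7 was lower with let-7c than with miR-294 (-0.70 ± 0.06), as was Hells (-0.37 ± 0.07), and Gadd45b (0.66 ± 0.09) and Apobec1 (0.38 ± 0.08) were higher.

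Of 9 further readers 7 were tested, and 2 of the 7 were called with each mimic, beside 28.7% of all tested genes with let-7c and 41.9% with miR-294. Mbd1 was the gene called in both. With let-7c 2 rose, the Kaiso-like zinc finger gene Zbtb4 (0.31 ± 0.07, adjusted p = 0.00842) and Mbd1 (0.20 ± 0.05, adjusted p = 0.0147). The Mbd1 call was lost on leaving out mock replicate 1 (0.0596). By limma 0 fell (2 at an unadjusted p under 0.05; 1 in the fit without let-7c replicate 3 and 1 with the replicate block). With miR-294 2 fell, Zbtb38, another Kaiso-like reader (-0.72 ± 0.06, adjusted p = 2.71e-06), and Mbd1 (-0.30 ± 0.05, adjusted p = 0.000811), and 0 rose by limma (0 at an unadjusted p under 0.05). The list medians were 0.03 with let-7c and 0.01 with miR-294. Between the mimics Zbtb38 (0.79), Mbd1 (0.49) and Zbtb4 (0.39) were higher with let-7c. Mbd6 (-0.12, adjusted p = 0.0349) and Mbd4 (-0.19, adjusted p = 0.0381) were lower. The Mbd4 difference was -0.11 without let-7c replicate 2, and its call was lost on leaving out replicate 1 or 2 of let-7c (0.0630 and 0.141), 1 or 3 of miR-294 (0.0773 and 0.111) or 2 or 3 of mock (0.0512 and 0.0516). This call was also lost with no filter (0.0684) and when only the 2 groups compared were fitted (0.0677).

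NuRD, the complex that Mbd2 and Mbd3 join, had called members in both directions. Of 12 tested subunit genes 1 fell with let-7c, the remodelling ATPase gene Chd4 (-0.24 ± 0.04), and 1 rose, its relative Chd3 (0.20 ± 0.06, adjusted p = 0.0288). The Chd3 call was lost on leaving out replicate 2 or 3 of let-7c (0.0571 and 0.107) or 1 or 3 of mock (0.104 and 0.0541), and with no filter (0.0576). The count of falls was 2 without miR-294 replicate 1 or with the replicate block. With miR-294 4 fell, among them Gatad2b (-0.48 ± 0.04), Rbbp7 (-0.33 ± 0.05) and again Chd4 (-0.25 ± 0.04, adjusted p = 0.000639). Another 4 rose with miR-294, among them Cdk2ap1 (0.39 ± 0.06) and Mta2 (0.26 ± 0.05). The list medians were -0.06 and -0.02. Beside these counts, 28.7% of all tested genes were called with let-7c and 41.9% with miR-294. In the direct test Gatad2b was higher with let-7c (0.39) and Mta2 (-0.33), Cdk2ap1 (-0.29) and Gatad2a (-0.27) were lower.

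Genes that supply the methyl donor S-adenosylmethionine gave one of the largest differences around the members. Mat2b, the regulatory subunit of the enzyme that makes the donor, fell by 0.98 with miR-294 (SE 0.05, adjusted p = 9.73e-08) and by 0.26 with let-7c (SE 0.05, adjusted p = 0.00186). The serine hydroxymethyltransferase genes rose with miR-294, Shmt1 by 0.56 ± 0.05 and Shmt2 by 0.38 ± 0.06. Shmt2 fell with let-7c (-0.34 ± 0.06). Of 14 genes listed 8 were tested, of which 4 fell and 1 rose with let-7c (median -0.18), and 2 fell and 2 rose with miR-294 (median 0.00). The shares called over all tested genes were 28.7% with let-7c and 41.9% with miR-294. The count of falls with let-7c was 2 without let-7c replicate 1, mock replicate 2 or mock replicate 3. Mthfd1 (-0.19 ± 0.05, adjusted p = 0.0175) lost its call without those same arrays (0.0597, 0.0675 and 0.0691). Ahcyl1 rose with let-7c (0.20 ± 0.05) and fell with miR-294 (-0.14 ± 0.05, adjusted p = 0.0441), and the latter call was lost on leaving out any miR-294 array (0.0671, 0.145 and 0.0553) or any mock array (0.110, 0.0703 and 0.106). Between the mimics Mat2b (0.72) and Ahcyl1 (0.34) were higher with let-7c and Shmt2 (-0.72) and Shmt1 (-0.71) lower.

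Genes of histone H3 lysine 9 methylation, a repressive mark that works alongside DNA methylation, included several falls with let-7c. Of 12 genes listed 11 were tested, of which 7 fell and 0 rose by limma (8 and 0 at an unadjusted p under 0.05), beside 14.8% of all tested genes called lower; the list median was -0.21. The other 4 did not pass the test, with differences of -0.11 for Wiz, -0.07 for Cbx1, -0.01 for Atf7ip and 0.02 for Ehmt2. The methyltransferase gene Setdb1 (-0.48 ± 0.05), the HP1 alpha gene Cbx5 (-0.48 ± 0.04), Suv39h2 (-0.42 ± 0.04) and the zinc finger gene Zfp462 (-0.32 ± 0.04) fell most. With miR-294 1 rose, the HP1 beta gene Cbx1 (0.35 ± 0.05), and 1 fell, the Setdb1 partner Atf7ip (-0.24 ± 0.05), around a median of 0.00. Directly, 1 was higher with let-7c, Atf7ip (0.23), and 8 were lower, led by Setdb1 (-0.51), Cbx5 (-0.45), Cbx1 (-0.42) and Suv39h2 (-0.42). Over all tested genes 20.7% rose and 21.1% fell with miR-294, and 26.2% were higher and 24.5% lower in the direct test.

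Germline genes that promoter methylation is known to silence were mostly dim or did not pass the test against mock. Of 20 listed 10 were tested. With let-7c Sycp3, a synaptonemal complex gene, rose (0.37 ± 0.08, adjusted p = 0.00574), and 0 fell by limma (1 at an unadjusted p under 0.05). In 10 of the 18 alternatives, those without let-7c replicate 3 or miR-294 replicate 2 and the replicate block among them, 1 gene fell. With miR-294 Tex11, a meiotic gene, fell (-0.57 ± 0.08, adjusted p = 0.000179) and Rpl10l rose (0.29 ± 0.08, adjusted p = 0.0125), the latter call being lost on leaving out miR-294 replicate 2 (0.0509). The count of rises was 2 without let-7c replicate 2 or miR-294 replicate 1, that of falls 2 without mock replicate 1, and both were 2 with the replicate block. The list medians were 0.04 with let-7c and 0.09 with miR-294. As background, 28.7% of all tested genes were called with let-7c and 41.9% with miR-294. Between the mimics 3 of the 10 tested were higher with let-7c, among them Tex11 (0.72) and Sycp3 (0.35). The 2 lower genes were Rpl10l (-0.51) and Syce1 (-0.28, adjusted p = 0.0377). In that comparison 50.8% of all tested genes were called. The Syce1 difference was -0.18 without let-7c replicate 1, and its call was lost on leaving out replicate 1 or 2 of let-7c (0.147 and 0.0869) or 2 or 3 of miR-294 (0.131 and 0.123). This call was also lost with no filter (0.0640) and when only the 2 groups compared were fitted (0.0623).

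Of 24 imprinted genes 18 were tested, and with let-7c 1 rose and 1 fell (median 0.11). The non-coding RNA gene Meg3 rose (0.35 ± 0.05), and the adaptor gene Grb10 fell (-0.34 ± 0.09, adjusted p = 0.0184), and its call was lost on leaving out let-7c replicate 3 (0.0724) or mock replicate 1 (0.0666). The count of rises was 5 with the replicate block, 3 without let-7c replicate 1 and 2 without mock replicate 3. With miR-294 3 rose (6 with the replicate block) and 4 fell (median 0.07). Over all tested genes 28.7% were called with let-7c and 41.9% with miR-294. Ndn (-0.56 ± 0.06) and Peg3 (-0.49 ± 0.08) fell and Grb10 rose (0.48 ± 0.09). For Plagl1 the fall (-0.31 ± 0.10, adjusted p = 0.0307) lost its call on leaving out replicate 1 or 2 of miR-294 (0.112 and 0.0523) or 2 or 3 of mock (0.105 and 0.109). The Plagl1 call was also lost with no filter (0.0531). Between the mimics Grb10 was lower with let-7c (-0.82), and Ndn (0.73), Peg3 (0.60) and Meg3 (0.55) were higher.

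**Figure D4:**
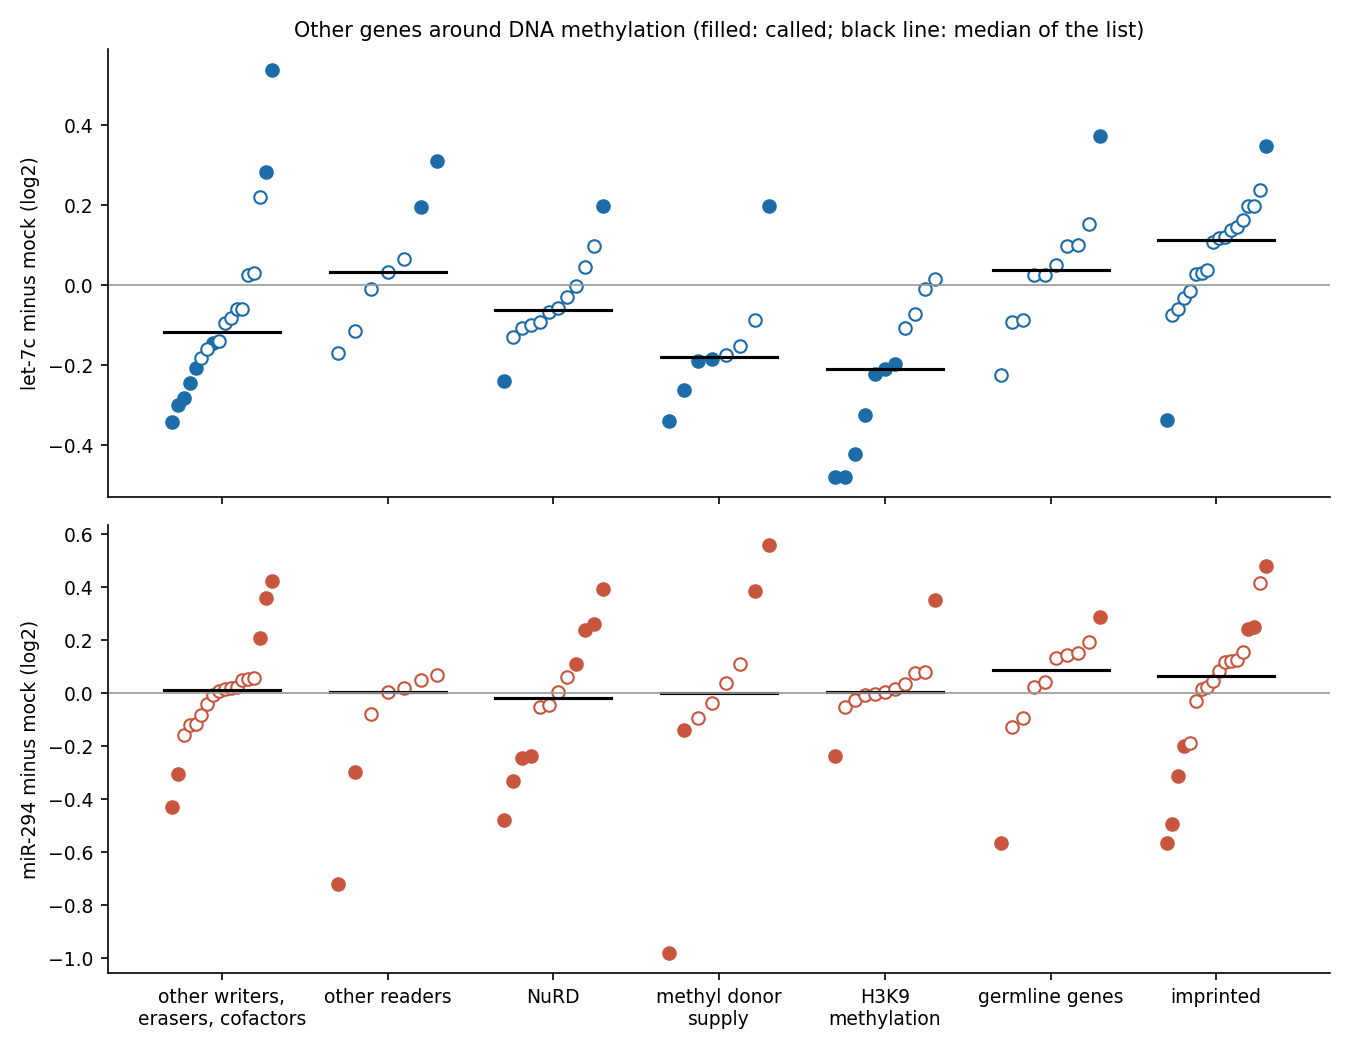
Difference from mock (y axis, log2) with let-7c (upper panel) and miR-294 (lower panel) of each tested gene in 7 lists around DNA methylation (x axis). Each point is 1 gene, filled where called, and the black line is the list's median. In the list of H3K9 methylation 7 of 11 genes are called lower with let-7c, while 1 is called lower with miR-294.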

How the data were processed

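RNA was measured on 9 1-colour arrays. The submitters' processing notes name GCRMA, which corrects background, normalizes arrays and summarises probe sets; no version is named. The deposited values were read as log2 intensities from their range, since no header states the scale, and were used as deposited; their normalization would remove a shift shared by all genes. Precision is limited by the number of arrays. Gene names come from GEO's platform annotation: 21789 probe sets had 1 symbol, 1621 several and 12147 none, and 21698 symbols were matched to RefSeq by gene ID. Each gene was read by its probe set of highest mean. Genes above the 40th percentile of an array's probe sets on 3 or more arrays were tested, 13182 in all (66.1%). All 9 arrays were fitted with limma 3.58.1 in R 4.3.3 (lmFit, eBayes without trend, 3 group means, 6 residual degrees of freedom, two-sided). The script was tested on simulated data. The labels' replicate numbers were checked for pairing by correlating arrays' deviations from their group means. Same-numbered arrays correlated at 0.13 to 0.42 between let-7c and mock, at 0.27 to 0.36 between miR-294 and mock and at 0.029 to 0.25 between the mimics. Differently numbered arrays correlated at -0.36 to 0.15. By this measure 8 of 9 arrays matched their own number best in both other groups. Let-7c replicate 3 correlated better with mock replicate 2 (0.149) than with mock replicate 3 (0.133). The labels do not state that same-numbered arrays are paired. If they are, the pairing holds across all 3 groups, and the weakest same-numbered correlation was between the mimics (0.029). Pairing was therefore taken as possible but not established. The fit reported has no block, so its standard errors and calls do not use any pairing. The fit with the replicate number as a block is given where it moved a count by over 1.5 times. Members and lists were chosen with earlier results of these data known, and the lists were written from general knowledge. All members are named, and of each other list the up to 4 called genes that changed most. Mbd6, the H3K9 genes that did not pass the test with let-7c and the direct value of Atf7ip are named outside this rule. So are Tet3 with let-7c, Chd4 with miR-294 and the neurectoderm, feeder fibroblast, primitive endoderm and trophoblast markers. All of these were chosen after their values were seen. Alternatives changed the filter, normalization, choice of probe set, variance prior, arrays fitted, replicate block and each array in turn. Several of these leave a given difference as it was and can change only its adjusted p. Examples are leaving out an array of the group not compared and, for a gene with 1 probe set, the choice of probe set.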

Additional observations from a re-analysis of the deposited data

Results flagged for a closer look

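Dnmt3b and Uhrf1 stood out because their differences from mock had opposite signs with the 2 mimics, both were called, and the direct comparison of the mimics was called too. The difference of let-7c minus miR-294 was -1.17 for Dnmt3b and -0.38 for Uhrf1. Only the direct comparison tests that the responses differ, since both differences from mock share the mock arrays. The let-7c side of the Uhrf1 pattern depended on single arrays, as given in the report.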

How the results depend on the processing

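Of 27 differences (9 members in 3 comparisons), 18 kept their direction and their side of the threshold in all 18 alternatives. The number of members lower with let-7c than mock ran from 2 to 6 when 1 array was left out. Under quantile normalization 2 members rather than 1 were higher with let-7c than miR-294, the added one being Dnmt1 (0.12, adjusted p = 0.0255). Why these counts moved was not tested. No other count of members or of all genes moved by over 1.5 times, but leaving out 1 array took the genes called with let-7c as low as 1294 higher and 1396 lower. Differences that did not pass the test changed sign for Mbd3 with let-7c without let-7c replicate 3 (range -0.011 to 0.035 over the arrays left out), for Dnmt3a with miR-294 without miR-294 replicate 3 (-0.020 to 0.15), and for Tet2 with miR-294 without miR-294 replicate 2 (-0.012) or mock replicate 3 (-0.020 to 0.076 over all). The cause was not tested. Of 72 results on Rbl2 and the genes named by the rule for their list, 63 kept direction and side in each alternative that gave a value. Zbtb4 and Sycp3 gave none under the stricter filter. Of 756 recomputed list counts 89 moved by over 1.5 times, all small counts. The replicate block is an alternative without an established pairing, and 1 same-numbered pair of the mimics correlated at only 0.029. In the direct comparison of the mimics the block left 1 member higher and 7 lower. With the block 6 members were lower and 1 higher with let-7c, 3 lower and 4 higher with miR-294, and the genes called with let-7c numbered 2272 higher and 2285 lower. The block changed no call against mock of a member, of Rbl2 or of a gene named by the rule for its list. Alternatives are not given for the markers or for values named outside that rule. The list counts that the block moved by over 1.5 times stand in the report.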

Other observations

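For each member, the 2 tested genes whose values followed it most closely over the 9 arrays were identified by Pearson's r, leaving out the members themselves and predicted genes. The 9 arrays fall into 3 groups, so each r mainly describes likeness of the group means, and no test was made of it. Dnmt3b was followed by Alkbh4 (0.996) and Psme3 (0.995), and Uhrf1 by Clns1a (0.995) and Krr1 (0.995). Mbd2 was followed by Tor1b (0.997) and the protease gene Adam17 (0.997), and Mbd3 by Yrdc (0.993) and Nadk (0.991). Tet1 was followed by Uspl1 (0.995) and Golm1 (0.989), and Tet2 by the ES cell F-box gene Fbxo15 (0.974) and Cand1 (0.965). Dnmt1 was followed by Arih1 (0.988) and Tfap4 (0.987), Dnmt3a by Nek3 (0.984) and Sumo2 (0.979), and Dnmt3l by the meiotic gene Syce2 (0.981) and Pithd1 (0.976). The difference from mock of Adam17 was -0.50 with miR-294 and 0.02 with let-7c.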
